A study of Mus musculus with 6 samples.

Results

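Enzymes that conjugate glutathione, hydrolyse epoxides, remove peroxides and superoxide, or keep glutathione and thioredoxin reduced were examined in mouse fetal gonads. Wild type was compared with a conditional Sox9 mutant. The genes were chosen by symbol: the glutathione transferase classes, the epoxide hydrolases, the glutathione peroxidases, peroxiredoxins and thioredoxin reductases, and Gclc, Gclm, Gss, Gsr, Cat, Sod1, Sod2, Sod3, Nqo1 and Hmox1. Of 19937 genes measured by a probe set annotated to a single gene, 51 fitted these symbols. Measured values entered the choice at one point, since a gene with more than 1 probe set was represented by the one with the highest mean over the 6 arrays. That concerned 4 genes (Gpx4, Gstm3, Prdx1 and Prdx2), and the other 47 had 1 probe set. The group was taken up with results of these arrays already known, among them the large falls of Ephx1 and Gstm6, so its counts describe these enzymes and are no independent test of them as a group. A further 5 probe sets were annotated to several genes at once, Gsta1, Gsta2, Gstp1 or Gstp2 among them, and were not used.

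Wild-type gonads (3 arrays, each a pool of 6) were compared with gonads of genotype Sox9flox/flox; Sf1:creTr/+ (3 arrays, each a pool of 12), called the Sox9 mutant here. All embryos were E13.5 (embryonic day), from C57BL6/J crossed with 129, and the gonads were freed of mesonephros and frozen. Sf1 is another name of Nr5a1, a transcription factor of the somatic gonad and adrenal cortex, so this Cre line acts in more than 1 somatic cell type. Groups with the Cre alone or the floxed alleles alone were not analysed here, pool size goes with genotype, and the labels name neither embryo sex nor litter. P-values therefore measure the spread between pools, which may be partly technical. The arrays carry label numbers: wild types are 1, 2 and 5, mutants 3, 4 and 6.

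Glutathione is a tripeptide that serves as the main small-molecule thiol of cells. Glutathione transferases attach it to reactive electrophiles, epoxide hydrolases open epoxides to diols, and glutathione peroxidases spend it to reduce peroxides. Peroxiredoxins and catalase remove peroxides as well, superoxide dismutases turn superoxide into hydrogen peroxide, and many of these genes are induced by the transcription factor NRF2. Cells that make steroids and cells of the adult testis are known to be rich in glutathione transferases.

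Values are log2 RMA values of a probe set, and a difference is the mutant mean minus the wild-type mean. The Sox9 probe set read 8.82, 8.81 and 9.20 log2 in wild types 1, 2 and 5 against 7.52, 7.78 and 7.60 in mutants 3, 4 and 6, and the groups did not overlap. Gonadal markers stood well above the background mark of 6.67 log2 in wild type, Amh of Sertoli cells at 11.23, Cyp11a1 of Leydig cells at 11.82 and Ddx4 of germ cells at 10.91 log2 on average. The mark is the 95th percentile of 1210 olfactory and vomeronasal receptor probe sets, whose genes are not expected in gonads. Wild type 5 stands apart by liver transcripts. Summed over 18 liver markers on the linear scale, it reached 10585, against 1766 and 1845 on wild types 1 and 2 and 1657 to 1823 on the mutants, and 7 of the 18 had a mean below the mark.

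In the mutant, 11 of the 51 enzyme genes were lower and passed the test. They were Ephx1, Gstm6, Gstm7, Gsta4, Gstm1, Gpx3, Gsta3, Mgst2, Gpx1, Hmox1 and Gstk1, with differences from -2.73 to -0.66 log2. Among all genes, 4.3% were called lower and 2.64% higher at the same threshold (limma adjusted p under 0.05 over 28187 probe sets), against 21.6% of these enzymes lower and 0 higher. Without adjustment, 15 had p under 0.05 on the lower side and 2 on the higher side. The median difference was -0.17 log2 over the 51 and 0.00 over all genes. The 40 that did not pass had a median of -0.01, with 21 negative and 19 positive differences. Separation was also counted on the same values, without a test. In 17 of the 51 every mutant value lay under every wild-type value, 33.3% against 16.6% of all genes. In 4 every mutant value lay above, 7.84% against 12.1%. The 17 held all 11 called genes, and among the 40 not called 6 were lower without overlap (15%). The count of 11 was 7 without wild type 1, when Gpx1, Gsta3, Gsta4 and Gstk1 no longer passed, and 9 to 13 without any other single array.

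**Figure D1:**
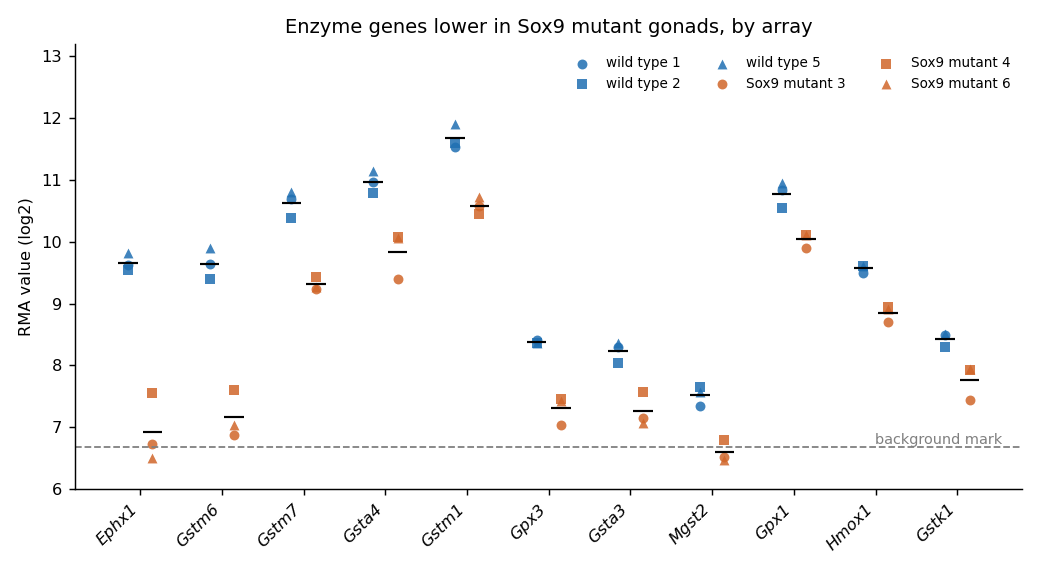
RMA values (log2) of the 11 enzyme genes called lower, by array: blue for the 3 wild-type pools, orange for the 3 Sox9 mutant pools, with black bars at group means and a dashed line at the background mark of 6.67 log2. In each gene the 3 mutant values lie below the 3 wild-type values, and Ephx1, Gstm6 and Mgst2 approach or cross the mark in the mutant.

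The widest gap was in Ephx1, the microsomal epoxide hydrolase, which opens the epoxides that cytochrome P450 enzymes form on drugs and aromatic hydrocarbons. Its values were 9.62, 9.54 and 9.81 log2 in wild types 1, 2 and 5 against 6.72, 7.56 and 6.50 in mutants 3, 4 and 6, the order kept below. Mutant 4 kept the highest of the mutant values, and mutant 6 fell below the background mark. Ephx1 fell by 2.73 ± 0.24 log2 (moderated SE), with a limma adjusted p of 0.000561 and a 6.64-fold difference in which the mutant values lie near background. In pooled tissue, fewer cells of a type and less RNA per cell cannot be told apart, here and for each gene that follows. The soluble enzyme Ephx2, which hydrolyses fatty acid epoxides, measured 7.17 ± 0.09 log2 in wild-type pools against 7.17 ± 0.05 in mutant pools (SD, n = 3 per genotype), with a 95% interval of the difference from -0.24 to 0.25. Ephx3 and Ephx4 had both group means below the mark, so little can be read from them. Within this family 1 of 4 passed.

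Mu-class glutathione transferases held 3 of the called genes. Gstm6 measured 9.64, 9.39 and 9.91 log2 in wild-type pools against 6.87, 7.59 and 7.03 in mutant pools, with mutants 3 and 6 close to the mark. It fell by 2.48 ± 0.20 log2, 5.58-fold (limma adjusted p = 0.000344). Gstm7 stood at 10.69, 10.39 and 10.80 log2 on the wild-type arrays and at 9.24, 9.42 and 9.27 on the mutant arrays, a difference of -1.31 ± 0.14 log2 with little spread among mutants (limma adjusted p = 0.000992). Gstm1, an abundant member in liver, read 11.53, 11.61 and 11.90 log2 in wild-type pools against 10.58, 10.44 and 10.72 in mutant pools, and fell by 1.10 ± 0.14 (limma adjusted p = 0.00229). In Gstm1, unlike Gstm6 and Gstm7, mutant 4 was the lowest of the mutant arrays. Gstm2 (10.62, 10.66 and 10.89 log2 against 10.36, 10.17 and 9.80) and Gstm3 (9.53, 9.40 and 9.83 against 8.40, 8.97 and 9.20) also had no overlap between groups, yet missed the threshold, with differences of -0.61 and -0.73 log2 (limma adjusted p = 0.0601 and 0.0791). The dimmer probe set of Gstm3 differed by -0.17 log2 (adjusted p = 0.742), and there mutant 6, at 9.02 log2, lay above all wild types (8.68, 8.67 and 8.96), so the probe sets of this gene disagree on the size and on the separation. Intervals of Gstm5 (-0.38 to 0.18 log2) and Gstm4 (-0.29 to 0.33) lay around 0.

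In the reference gene order of chromosome 3 the 7 genes stand side by side as Gstm5, Gstm7, Gstm6, Gstm3, Gstm2, Gstm1 and Gstm4, with no other protein-coding gene between them. The members at either end, Gstm5 and Gstm4, were those with differences near 0, at -0.097 and 0.022 log2. On the probe sets used, all 5 inner genes had mutant values below every wild-type value, which also held for 16.6% of all genes. Of the inner genes, Gstm3 and Gstm2 were not called. For Gstm3 the separation did not hold on its dimmer probe set. The dimmer one is numbered between the probe sets of Gstm6 and Gstm2, and the one used is numbered far from them. Whether the signal used for Gstm3 comes from this cluster was not tested. The called ones were not all adjacent, since Gstm3 and Gstm2 lie between Gstm6 and Gstm1. The genes of this cluster are close in sequence, and probes of one can bind transcripts of another, so the share of each single gene in these differences is uncertain.

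**Figure D2:**
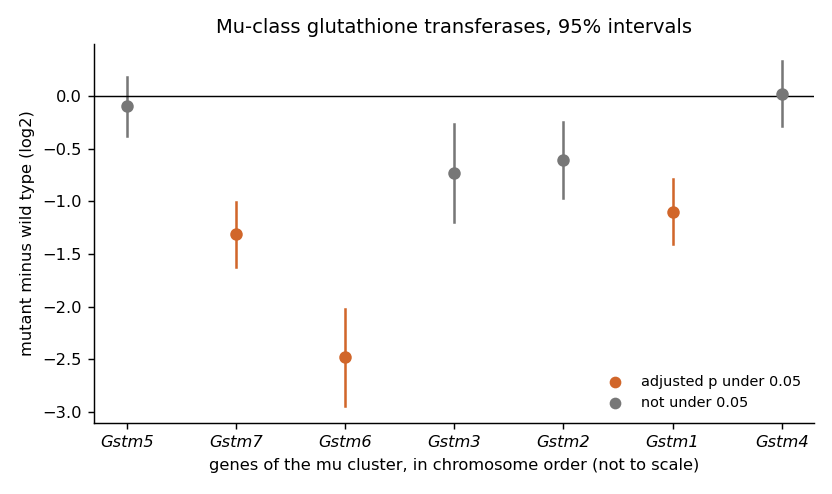
Difference between mutant and wild type (log2) of the 7 mu-class genes in chromosome order, evenly spaced and not to scale, with 95% intervals from the limma fit; orange marks adjusted p under 0.05. Gstm5 and Gstm4 at the ends lie near 0 and Gstm6 is lowest at -2.48 log2. Gstm3 is drawn from its brighter probe set, and its dimmer one differed by -0.17 log2.

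The bases upstream of the most reduced genes are shown because their transcripts fell together, and because short motifs of candidate regulators can be looked for there. Each run is the 250 bases before an annotated start (RefSeq, GRCm38.p6), read 5′ to 3′ on the strand of the gene, with motif matches in capitals. Gstm6 has 3 annotated starts, the second of which is shown, and Gstm7 has 2, the first of which is shown. No window was matched for Gsta4 or Hmox1, so neither was searched. Gsta3, chosen after the search, is added as a called member with an antioxidant response element core. It was taken ahead of Gstm1 and Gpx3, which fell more and had no match.
Ephx1 (chr1:181017570-181017819, minus strand): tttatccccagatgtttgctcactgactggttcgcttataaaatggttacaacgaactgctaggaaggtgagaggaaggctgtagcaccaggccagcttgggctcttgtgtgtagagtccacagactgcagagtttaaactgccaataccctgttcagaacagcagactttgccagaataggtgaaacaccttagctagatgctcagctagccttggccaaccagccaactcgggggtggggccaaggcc
Gstm6 (chr3:107943735-107943984, minus strand): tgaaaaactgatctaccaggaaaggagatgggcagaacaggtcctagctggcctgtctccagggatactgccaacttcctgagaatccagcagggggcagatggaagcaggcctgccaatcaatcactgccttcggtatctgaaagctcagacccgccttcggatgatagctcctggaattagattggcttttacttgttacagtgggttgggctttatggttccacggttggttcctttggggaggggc
Gstm7 (chr3:107931818-107932067, minus strand): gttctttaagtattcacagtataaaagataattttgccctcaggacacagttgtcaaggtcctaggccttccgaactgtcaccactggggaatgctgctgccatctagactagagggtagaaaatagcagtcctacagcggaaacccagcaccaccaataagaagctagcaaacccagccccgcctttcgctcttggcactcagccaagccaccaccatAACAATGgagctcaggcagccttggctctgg
Gsta3 (chr1:21240335-21240584, plus strand): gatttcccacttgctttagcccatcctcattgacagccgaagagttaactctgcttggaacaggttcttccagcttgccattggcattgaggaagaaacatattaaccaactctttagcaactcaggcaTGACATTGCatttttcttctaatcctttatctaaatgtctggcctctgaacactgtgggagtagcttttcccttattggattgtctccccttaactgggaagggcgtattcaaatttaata
Motifs were searched on both strands of windows of 250 bases before to 50 after the start. In capitals, Gstm7 shows AACAAT, which begins 31 bases before the start, overlapped by ACAATG at 30 bases, both forms of the SOX core. Gsta3 shows a match to TGACNNNGC, the antioxidant response element core, 121 bases before its start. None of the letters searched occurs in the Ephx1 window or in the 3 windows of Gstm6. The same holds for the 2 windows of Gstm1 and for those of Gpx3 and Mgst2. Among other called members, AACAAT was found at Gpx1 and AAGGTCA, an NR5A1 half-site, at Gstk1. The window of the other Gstm7 start overlaps the one shown, holds the same AACAATG and adds a TGACNNNGC.
Promoter windows were matched for 44 of the 51 genes, 59 windows in all, and where windows of a gene overlap a match can be counted more than once. TGACNNNGC occurred in 8 of the 59 (13.6%), against 12.4% of 32851 windows of all genes. AACAAT occurred in 4 (6.78%, against 10.7%), ACAATG in 3 (5.08%, against 12.6%) and AAGGTCA in 2 (3.39%, against 4.72%). These shares of the 59 windows stand near or under those of all windows, and a letter match is no measured binding site. In the 13 windows of called members, AACAAT occurred in 3, TGACNNNGC in 2, ACAATG in 2 and AAGGTCA in 1. The overlapping Gstm7 windows are among them, and so few windows cannot show whether the called genes differ from all windows.

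Both alpha-class transferases measured by a probe set annotated to a single gene fell. Gsta4, whose enzyme conjugates hydroxynonenal from oxidised lipids, measured 10.97, 10.79 and 11.15 log2 in wild-type pools against 9.39, 10.08 and 10.05 in mutant pools. Mutant 3 was the lowest, under the other mutants by more than the whole wild-type range. Gsta4 differed by -1.13 ± 0.19 log2 (limma adjusted p = 0.0103). Gsta3, known in mouse liver for detoxifying aflatoxin epoxide, stood at 8.30, 8.04 and 8.37 log2 in wild-type pools against 7.15, 7.57 and 7.07 in mutant pools, and fell by 0.97 ± 0.16 (limma adjusted p = 0.00865). Both calls ended without wild type 1 (adjusted p = 0.0538 and 0.0509, within 0.00491 to 0.0538 and 0.00417 to 0.0509 over the alternatives), with differences of -1.13 and -0.94 log2. Gstk1, the kappa-class enzyme of mitochondria and peroxisomes, read 8.50, 8.29 and 8.51 against 7.44, 7.93 and 7.94 log2. Its difference of -0.66 ± 0.16 log2 was the smallest call of the group (limma adjusted p = 0.0406), and it ended in 7 of 14 alternatives, among them quantile normalization and leaving out any single array but mutant 6 (adjusted p up to 0.156).

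No member of the pi, theta, omega or zeta classes passed the limma threshold, and none of these 9 had an unadjusted p under 0.05. Gstp1, a widespread transferase of proliferating tissue, measured 10.59 ± 0.24 log2 in wild-type pools against 10.69 ± 0.32 in mutant pools (SD, n = 3 per genotype), with an interval of the difference from -0.31 to 0.52 log2. Gstp3 was near background in both groups. Of the theta genes Gstt3 differed by -0.031 log2 (-0.28 to 0.22) and Gstt1 by 0.029 (-0.35 to 0.41). Gsto1 and Gsto2, which act on ascorbate and arsenic compounds, differed by -0.27 and -0.25 log2, and Gstz1, an enzyme of tyrosine breakdown, by -0.19. The lowest bound of their intervals was -0.65 log2. Across the cytosolic classes with kappa, 6 of 19 genes fell, all of them alpha, mu or kappa.

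Microsomal transferases belong to an unrelated membrane protein family. Mgst2, which can make leukotrienes as well as conjugate electrophiles, measured 7.34, 7.65 and 7.58 log2 in wild-type pools against 6.51, 6.80 and 6.47 in mutant pools. Mutants 3 and 6 lay below the mark, and Mgst2 fell by 0.93 ± 0.14 log2 (limma adjusted p = 0.00523). Mgst1, an abundant member of liver membranes, read 9.80, 9.71 and 10.00 and 9.02, 9.25 and 9.49 log2, no overlap, with a difference of -0.58 that narrowly missed the threshold (limma adjusted p = 0.0538). The values of Mgst3 did not overlap either, at a difference of -0.23 log2 (adjusted p = 0.352).

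**Figure D3:**
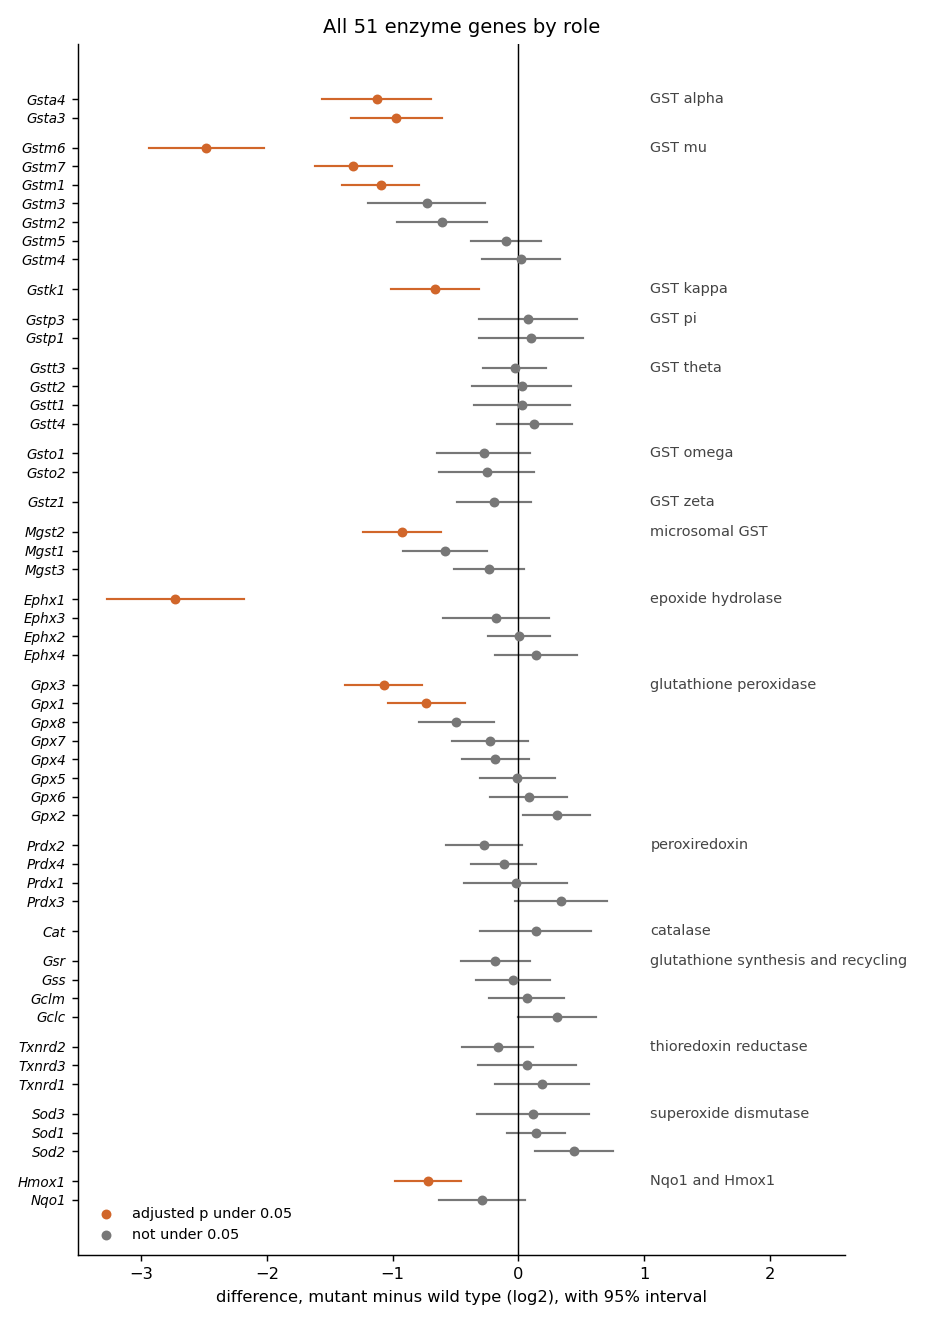
Differences (log2, mutant minus wild type) of all 51 enzyme genes with 95% intervals from the limma fit, grouped by role, with orange for adjusted p under 0.05 and grey for the rest. Called genes sit among alpha, mu, kappa and microsomal transferases, Ephx1, 2 glutathione peroxidases and Hmox1. Peroxiredoxins, glutathione synthesis and thioredoxin reductases centre near 0, and the 3 superoxide dismutases all lie above 0, with none called.

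Of 8 glutathione peroxidases 2 fell. Gpx3, the secreted form of plasma, measured 8.41, 8.36 and 8.36 log2 in wild-type pools against 7.03, 7.46 and 7.42 in mutant pools, and fell by 1.07 ± 0.14 log2 (limma adjusted p = 0.00246). Its wild-type arrays lay close together, with an SD of 0.03 log2. Gpx1, the main cytosolic form, stood at 10.83, 10.55 and 10.95 log2 against 9.91, 10.11 and 10.12 and fell by 0.73 ± 0.14 (limma adjusted p = 0.0151). Its call ended without wild type 1, wild type 5 or mutant 3 and among numbers 1 to 4 alone (adjusted p up to 0.0758). Gpx8, of the endoplasmic reticulum, read 10.67, 10.45 and 10.65 and 9.88, 10.21 and 10.21 log2, lower in each mutant but not past the threshold (adjusted p = 0.0680). Gpx4, which reduces lipid hydroperoxides in membranes and is needed for sperm development, differed by -0.18 log2 (-0.45 to 0.08), and by -0.14 on its other probe set. Gpx2, Gpx5 and Gpx6 had both means below the mark. Of these, Gpx2 was higher in each mutant than in any wild type, by 0.30 log2 (limma unadjusted p = 0.0285, adjusted p = 0.193). Gpx7 differed by -0.23 log2.

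Other peroxide scavengers showed no call. In peroxiredoxins the differences ran from -0.27 (Prdx2) to 0.34 log2 (Prdx3, of mitochondria), with 0 of 4 called in limma and 0 at an unadjusted p under 0.05. Prdx2, abundant in red blood cells, measured 12.00 ± 0.11 log2 in wild-type pools against 11.72 ± 0.20 in mutant pools. Its dimmer probe set read 8.50 ± 0.18 and 8.29 ± 0.10 log2, a difference of -0.21, so the level of this gene depends on the probe set. Prdx1 measured 11.23 ± 0.16 and 11.21 ± 0.36 log2 (SD, n = 3 per genotype), with an estimate of -0.021 that turned to 0.065 under quantile normalization. On the dimmer probe set of Prdx1 the difference was -0.063 log2. The probe sets of Prdx1 are numbered far from each other, and so are those of Prdx2. Whether the brighter signal of either comes from the gene named was not tested. Catalase, the peroxisomal enzyme, measured 9.33, 9.29 and 9.79 log2 in wild-type pools against 9.36, 9.47 and 9.99 in mutant pools, where wild type 5 and mutant 6 exceeded the others of their group and the groups overlapped. Its difference was 0.14 log2 (-0.30 to 0.58), and -0.054 without mutant 6.

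Glutathione synthesis and recycling did not pass in any of 4 genes. Gclc, the catalytic subunit of the rate-limiting step, read 9.43, 9.17 and 9.41 log2 in wild-type pools against 9.46, 9.63 and 9.85 in mutant pools, each mutant value slightly above each wild-type value (difference 0.31 log2, adjusted p = 0.260). Its modifier Gclm differed by 0.066 log2 (-0.23 to 0.37), an estimate of -0.041 without mutant 6. Gss, which completes glutathione, and Gsr, which reduces it again, differed by -0.042 and -0.19 log2. The 95% intervals of these 4 lay between -0.46 and 0.62 log2. Thioredoxin reductases, which recycle thioredoxin, gave 0.19 (Txnrd1, cytosolic), -0.17 (Txnrd2, mitochondrial) and 0.070 log2 (Txnrd3), the last turning to -0.11 without wild type 5.

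None of the 3 superoxide dismutases passed the limma threshold, and Sod2 had an unadjusted p of 0.0106. Sod2, the mitochondrial manganese enzyme, measured 9.78, 9.74 and 9.67 log2 in wild-type pools against 10.38, 10.21 and 9.92 in mutant pools, no overlap, at a difference of 0.44 ± 0.14 log2 that missed the threshold (limma adjusted p = 0.112). It passed without mutant 6 (0.57 log2, adjusted p = 0.0369) and with numbers 5 and 6 as a batch (adjusted p = 0.0459), over a range of 0.0369 to 0.309. Sod1, the cytosolic copper-zinc enzyme, read 11.79, 11.80 and 11.78 and 11.95, 11.93 and 11.91 log2, a separation of 0.14 log2 between tight groups (adjusted p = 0.529). Sod3 lay below the mark.

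The 2 inducible enzymes classically tied to NRF2 differed in outcome. Hmox1, which degrades haem and is also high in macrophages that clear red cells, measured 9.49, 9.61 and 9.60 log2 in wild-type pools against 8.70, 8.94 and 8.92 in mutant pools, and fell by 0.72 ± 0.12 (limma adjusted p = 0.00817). Nqo1, a quinone reductase, read 7.12, 6.89 and 7.32 and 6.63, 6.80 and 7.03 log2 with overlapping groups (difference -0.29, adjusted p = 0.347). Whether the differences of Hmox1 and Nqo1 differ from each other was not tested. None of 12 macrophage markers was called in limma (3 had an unadjusted p under 0.05, all higher), and their summed linear level was 1287 to 1313 and 1284 to 1431, wild type first. Of these markers 6 had a mean below the background mark, so little can be read from those. The part of macrophages in the fall of Hmox1 was not tested.

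Regulators and partners of these enzymes were read from 8 lists of 127 measured genes, none of them a member of the group. In all, 8 were called lower and 3 higher, 6.30% and 2.36%, near the shares of 4.3% and 2.64% among all genes. Among 11 NRF2 and KEAP1 regulators 1 was lower, Mafk, a small MAF partner of NRF2 (difference -0.65 ± 0.15 log2, limma adjusted p = 0.0333), a call that ended in 7 of 13 alternatives (adjusted p up to 0.106). Nfe2l2, which encodes NRF2, measured 9.13 ± 0.08 and 9.20 ± 0.11 log2, and Keap1 8.77 ± 0.10 and 8.80 ± 0.12 (SD, n = 3 per genotype). Of 17 further NRF2 targets 2 fell and 1 rose. Me1, the malic enzyme that yields NADPH, fell by 1.60 ± 0.18 log2 from 11.91, 11.95 and 11.95 to 10.08, 10.78 and 10.16 (limma adjusted p = 0.00141). Akr1b8, an aldo-keto reductase, fell by 1.37 ± 0.21, and Tkt, transketolase of the pentose phosphate pathway, rose by 0.70 ± 0.13 log2 (limma adjusted p = 0.00628 and 0.0135). The call of Tkt ended without wild type 2 and among numbers 1 to 4 alone (adjusted p up to 0.0573). The other 14 targets did not pass.

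Glutathione turnover and transport had 1 lower and 1 higher of 17. Anpep, an aminopeptidase that acts on glutathione breakdown products among others, rose by 1.61 ± 0.12 log2, from 7.35, 7.35 and 7.36 to 9.04, 8.75 and 9.09 (limma adjusted p = 0.000291). Slc3a2, the heavy chain of cystine and other amino acid exchangers, fell by 0.60 ± 0.12 log2 (limma adjusted p = 0.0176). In the list of 27 other detoxification enzymes 3 fell and 1 rose. Adh1, an alcohol and retinol dehydrogenase, measured 11.42, 11.12 and 11.73 log2 in wild-type pools against 7.21, 9.14 and 6.95 in mutant pools, a difference of -3.66 ± 0.48, with mutant 4 above the other mutants. Aldh1a1, a retinal dehydrogenase, fell by 1.17 ± 0.17, Cyp2s1 fell by 0.79 ± 0.16, and Ugt8a, which makes galactosylceramide, rose by 1.91 ± 0.33 log2 (limma adjusted p = 0.00299, 0.00472, 0.0204 and 0.0117). Of 17 selenoprotein genes, Selenos fell by 0.60 ± 0.14 log2 (limma adjusted p = 0.0364), a call lost in 7 of 13 alternatives, array weights and leaving out any single array but mutant 4 among them (adjusted p up to 0.134).

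No gene was called by limma among 20 of the thioredoxin and glutaredoxin system (4 with an unadjusted p under 0.05), 13 superoxide and peroxide sources (3) or 5 eicosanoid enzymes of the transferase families (0). Txn1 measured 11.96 ± 0.16 and 11.98 ± 0.12 log2, Glrx2 11.53 ± 0.02 and 11.29 ± 0.26, Cyba 9.14 ± 0.17 and 9.10 ± 0.16, Ccs 7.91 ± 0.26 and 7.58 ± 0.10, Ptges2 8.05 ± 0.14 and 8.08 ± 0.10, and Ptges 7.73 ± 0.09 and 7.53 ± 0.10 in wild type and mutant (SD, n = 3 per genotype). The 8 lower calls of the related lists became 4 without wild type 1 or mutant 3 and 5 without wild type 5, with Mafk, Slc3a2, Selenos and Cyp2s1 lost in each of these, and Ugt8a was lost without wild type 1.

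Markers of gonadal and neighbouring cell types moved beside the enzymes. Of 14 Sertoli markers 12 were lower, and their summed linear level was 11838 to 12937 in wild type and 2294 to 4348 in the mutant. In the Leydig list 6 of 7 were lower, with sums of 17026 to 18037 and 2435 to 6084. Each of 8 pregranulosa markers was higher (1301 to 1427 and 4671 to 5614), while germ cell sums overlapped (9026 to 10180 and 9278 to 10157, 2 of 8 lower). Of 7 mesonephros markers 3 were higher and 1 lower, with sums of 879 to 985 in wild type and 1335 to 1783 in the mutant that did not overlap, although the gonads were separated from mesonephros. Of 5 adrenal cortex markers 3 were lower and 1 higher, with sums of 753 to 878 and 805 to 1260. The part of these cell types in the falls of the enzymes was not tested. Mutant 4 held the highest Sertoli and Leydig sums of the mutants, and the medians of these lists against the wild-type mean were -1.96, -1.22 and -1.90 (Sertoli) and -2.54, -1.61 and -2.88 log2 (Leydig) on mutants 3, 4 and 6. For the 11 fallen enzymes the medians were -1.10, -0.89 and -0.96. Mutant 4 was the highest of the 3 mutants in 8 of the 11, 72.7% against 66.0% of the 857 genes called lower in all.

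**Figure D4:**
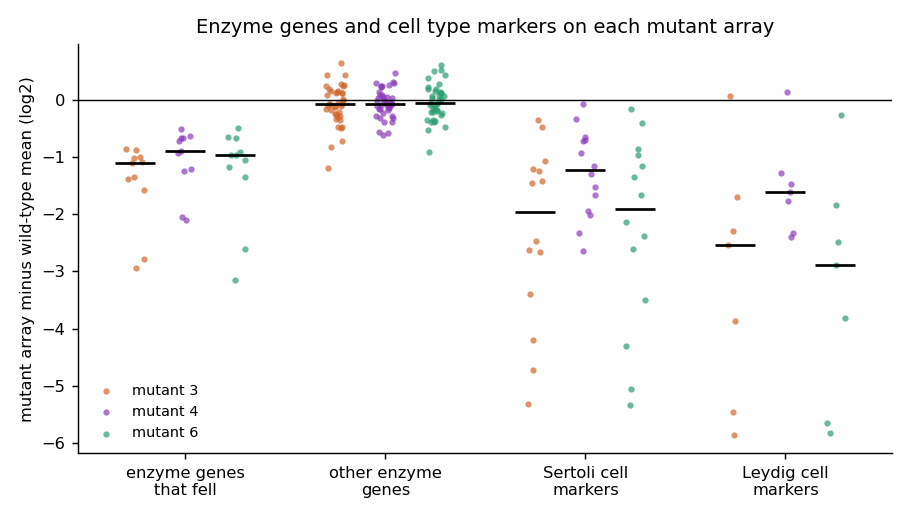
Value on each mutant array minus the wild-type mean (log2) for the 11 enzyme genes that fell, the 40 others, 14 Sertoli markers and 7 Leydig markers; points are genes, black bars are medians, colours are mutants 3, 4 and 6. Medians of the fallen enzymes lie between -1.10 and -0.89, those of the other enzymes between -0.07 and -0.06, and both marker lists are less reduced on mutant 4.

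Liver is rich in many of these enzymes, and wild type 5, the array with liver transcripts, was the highest of the wild types in 31 of the 51 genes (60.8%), against 36.0% of all genes. Among the 11 that fell it was highest in 8, against 37.5% of all genes called lower. Without wild type 5 the differences of the 11 ranged from -2.65 to -0.63 log2, and 9 passed. Ephx1 then differed by -2.65, Gstm6 by -2.35 and Gstm1 by -0.99 log2 (limma adjusted p = 0.00381, 0.00238 and 0.00857), while Gpx1 and Gstk1 lost their calls at differences of -0.65 and -0.63 log2 (adjusted p = 0.0559 and 0.117). Within numbers 1 to 4 and between wild type 5 and mutant 6, the gap of Ephx1 was -2.44 and -3.31 log2 and that of Gstm6 -2.29 and -2.87. Of 8 red blood cell markers 1 was lower, with summed levels of 7596 to 8641 in wild type and 4795 to 7826 in the mutant, lowest on mutant 3. The part of liver transcripts in these differences, and that of red blood cells in the values of Gpx1, Prdx2 and Cat, was not tested.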

How the data were processed

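Total RNA of E13.5 gonads was measured on 6 Affymetrix arrays, 300 ng per array, 3 of wild-type and 3 of Sox9flox/flox; Sf1:creTr/+ pools. The deposited values are log2 values that the authors made with RMA, per the submitters' processing notes. RMA corrects background, equalises distributions between arrays and summarises probes, which compresses differences near background, with settings and version not given in the sources used here. Values ran from 2.45 to 14.49.

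Of 34760 rows, 6573 with identifiers below the first annotated one were left out as a control block. The remaining 28187 probe sets were fitted together with limma 3.58.1 in R 4.3.3 (lmFit, eBayes, 2-sided, 4 residual degrees of freedom), with Benjamini-Hochberg adjustment over all of them. A gene was named only from probe sets annotated to 1 gene, and represented by the one with the highest mean; all 51 symbols are in the GRCm38.p6 gene table. The number of arrays limits the precision. The fit was tested on simulated data. Members and lists were chosen with earlier results of these data known. Called members are given with all 6 values; classes with none by the 2 genes with the highest mean; lists by up to 4 called genes, or the 2 with the highest mean. Other members named with values (such as Gstm2, Gpx8 and Gclc) were picked after their values were seen. Errors are SD beside means and moderated SE beside differences. Alternatives were other scalings, a filter on dim probe sets, other variance models, array weights, a batch of numbers 5 and 6, a stricter threshold, other probe set summaries and leaving out each array; numbers 1 to 4 alone was added after seeing the data. Figures were drawn with matplotlib 3.10.9.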

Additional observations from a re-analysis of the deposited data

How the results depend on the processing

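The count of 11 lower enzyme genes stayed within 8 to 15 under the scalings, filter, variance models, array weights, batch term, threshold of 0.01 and probe set summary tried, and ran from 7 to 13 with single arrays left out. Ephx1, Gstm6, Gstm7, Gstm1, Gpx3, Mgst2 and Hmox1 passed in all 14 alternatives. The count of 0 higher became 1 (Sod2) with numbers 5 and 6 as a batch and ran from 0 to 1 with single arrays left out. Related genes called higher, 3, became 5 with quantile normalization or array weights, 6 above the background mark, 7 with the batch and 1 at an adjusted p of 0.01. Those called lower, 8, became 5 among numbers 1 to 4 alone, 4 at 0.01, and 4 to 9 with single arrays left out. Enzyme genes without a call changed sign in places. Prdx1 became 0.065 with quantile normalization, and with single arrays left out it ran from -0.23 to 0.11, Gstp1 from -0.0052 to 0.29, Gstp3 from -0.032 to 0.27, Gstt3 from -0.078 to 0.019, Gstt1 from -0.12 to 0.22, Cat from -0.054 to 0.30, Gclm from -0.041 to 0.16 and Txnrd3 from -0.11 to 0.21 log2. Among numbers 1 to 4 alone, Gclm was -0.071 and Txnrd3 -0.055. The cause of these shifts was not tested, other than fewer arrays in fits that leave some out. No paired analysis was possible because the groups share no label number. Probe sets near background limit the size of falls that could be seen.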
